A study of Rattus norvegicus with 8 samples.

Results

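Caspases are proteases that cut proteins after aspartate, and the apoptosis-inducing factor AIF, the product of Aifm1, is a mitochondrial flavoprotein. The genes described here are Casp1, Casp2, Casp4, Casp6, Casp8, Casp9, Casp12 and Aifm1, which were taken as the 8 of 35250 gene names on a rat expression array that carry these names. They are probed by 9 of 43379 non-control spots, 1 for each gene and 2 for Casp9. Of the 8 genes, 7 gave a valid spot in all 8 rats and were quantified, among 21372 quantified genes, whereas Casp8 did not.

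The RNA came from the dentate gyrus (DG), the granule cell region of the hippocampus, of adult female Sprague-Dawley rats. All 8 rats were ovariectomized (OVX) and all went through status epilepticus (SE), a state of continuous seizure, after kainic acid (KA), an agonist of glutamate receptors. They differed in replacement: 4 rats received oil (COS: castrated, oil, SE) and 4 received estradiol (CES: castrated, E2, SE), so the comparison asks how the DG after SE differs with E2. Rats without SE were not analysed here. Per the labels, E2 was given as 4 doses of 2 µg at intervals of 24 h, 2 of them before SE and 2 after it. The labels give a KA dose of 16 mg/kg and an SE ended by pentobarbital after 5 h. The methods of the study instead give a lower KA dose, all hormone doses before SE and diazepam, and they place tissue collection both hours after seizure onset and a day after SE. The sources do not settle these points.

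Caspases are made as inactive zymogens. Of the inflammatory caspases (Casp1, Casp4, Casp12), Casp1 and Casp4 are linked to the maturation of interleukins and to lytic cell death. Initiator caspases (Casp2, Casp8, Casp9) are switched on by large protein platforms, and executioner caspases such as Casp6 cut structural and nuclear proteins. AIF helps to assemble the respiratory chain and can move to the nucleus in a form of cell death that does not need caspases. Transcript levels say nothing of how much of an enzyme is active.

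The inflammatory caspase genes lie side by side in the rat genome, and their probes, the 60-base sequences that captured the transcripts, are shown because Casp1 and Casp4 gave the widest differences among the quantified genes and because all are relatives whose transcripts could in principle bind each other's probes. Positions are those of the array files, for rn4, on the plus strand. The Casp1 probe lies at chr8:2032917-2032976 and that of Casp4 at chr8:2075044-2075103. The Casp12 probe spans chr8:2109935-2110430, longer than the probe itself, so the captured sequence is split in the genome. Together the 3 probes cover 77.5 kb. Capitals mark the longest runs that each shares with another of the 3, of which Casp4 and Casp12 have a pair.
Casp1: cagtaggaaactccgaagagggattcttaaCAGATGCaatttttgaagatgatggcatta
Casp4: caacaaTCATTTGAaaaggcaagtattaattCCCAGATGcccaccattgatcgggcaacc
Casp12: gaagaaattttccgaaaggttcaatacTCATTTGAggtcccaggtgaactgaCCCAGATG
The longest run shared by the probes of any 2 of the 8 genes was 8 bases. The probes were compared with each other and not with the transcripts of the other genes. Binding of a relative's transcript was therefore not tested.

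The upstream sequences of Casp1 and Casp12 are also shown, since these neighbours were both lower in CES and each holds a match to the same interferon-response motif. The 250 bases before the annotated start were read from RefSeq promoters of GRCr8, a newer build than rn4. These promoters held 6 of the 8 genes, all but Casp4 and Casp8. The sequences shown lie at chr8:10872580-10872829 for Casp1 and chr8:10926938-10927187 for Casp12, both on the plus strand. Capitals mark the motif matches, which are the ISRE in both and, nearer the 5′ end of the Casp12 sequence, the GAS.
Casp1: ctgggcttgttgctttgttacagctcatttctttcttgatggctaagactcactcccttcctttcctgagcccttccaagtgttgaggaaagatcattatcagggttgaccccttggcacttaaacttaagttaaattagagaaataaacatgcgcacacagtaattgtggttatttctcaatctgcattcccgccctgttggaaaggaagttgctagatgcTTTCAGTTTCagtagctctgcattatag
Casp12: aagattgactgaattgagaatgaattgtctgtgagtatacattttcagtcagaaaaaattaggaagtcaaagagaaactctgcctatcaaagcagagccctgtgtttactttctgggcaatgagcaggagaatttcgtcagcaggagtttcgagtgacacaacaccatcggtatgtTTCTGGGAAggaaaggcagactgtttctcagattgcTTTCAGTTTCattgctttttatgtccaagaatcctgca
The ISRE (TTTCNNTTTC) was searched on both strands and began at position -28 in Casp1 and -38 in Casp12. It was found in 3.92% of 33469 RefSeq promoters, each taken with 50 bases after the start as well. The GAS (TTCNNNGAA), whose match did not overlap the ISRE, was found in 8.87%. Neither motif matched the promoters of Casp2, Casp6, Casp9 or Aifm1. The AP-1 motif (TGANTCA, 7.33%), the kappa-B motif (GGGANTTTCC, 0.362%) and the estrogen response element, searched as GGTCANNNTGACC (0.0269%), matched none of the 6 promoters. These matches describe letters in a window and say nothing of the factors.

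Each array carried a pair of rats of the same group, 1 labeled with Cy3 and 1 with Cy5, and all 4 arrays share 1 slide. The level of a gene is the log2 of its background-subtracted fluorescence over the median of the valid spots of the same channel, so 0 is the level of the median valid spot. A valid spot had a foreground of 2 or more times the background around it, which held for 70.7 to 88.9% of spots per rat. Among the Cy3 rats the share was 86.9 and 88.9% in COS and 77.2 and 81.5% in CES. Among the Cy5 rats it was 80.1 and 74.6% in COS and 73.4 and 70.7% in CES. The channel medians were thus taken over a larger share of spots in COS, and the part of this in the differences was not tested. The groups were compared by limma, which took the dye as a fixed effect and the array as a random one, and a gene is called when its Benjamini-Hochberg adjusted p over all 21372 genes was under 0.05. Differences are CES minus COS on the log2 scale ± SE with 4 rats in each group, and levels of different probes are not compared.

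Of the 7 quantified genes, 5 were lower in CES (Casp1, Casp4, Casp6, Casp9 and Casp12), none was higher, and Casp2 and Aifm1 did not pass the test. At an unadjusted p under 0.05, 6 were lower and again none was higher, beside 7807 genes lower and 1850 higher of all 21372. In 3 of them (Casp1, Casp4, Casp6) every CES rat lay below every COS rat, as was the case for 19.8% of all genes. In whole tissue, fewer cells of a type and less RNA per cell cannot be told apart. Of all genes, 28.3% were called lower and 5.79% higher. The median difference was -0.99 over the 7 genes and -0.25 over all genes. The call depends on the scaling of the channels. When the channel medians were taken over the common spots, those valid in all 8 rats, the median of all genes moved to 0.15, and 1720 genes were called lower and 3352 higher in place of 6054 and 1238. Under that scaling 8.05% of all genes, and of the 7 only Casp6, were called lower. Without COS replicate 3 none of the 7 was called and 932 genes (4.36%) were called lower. At an unadjusted p under 0.05, 5 of the 7 were lower in that setting, beside 5449 of all genes.

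**Figure D1:**
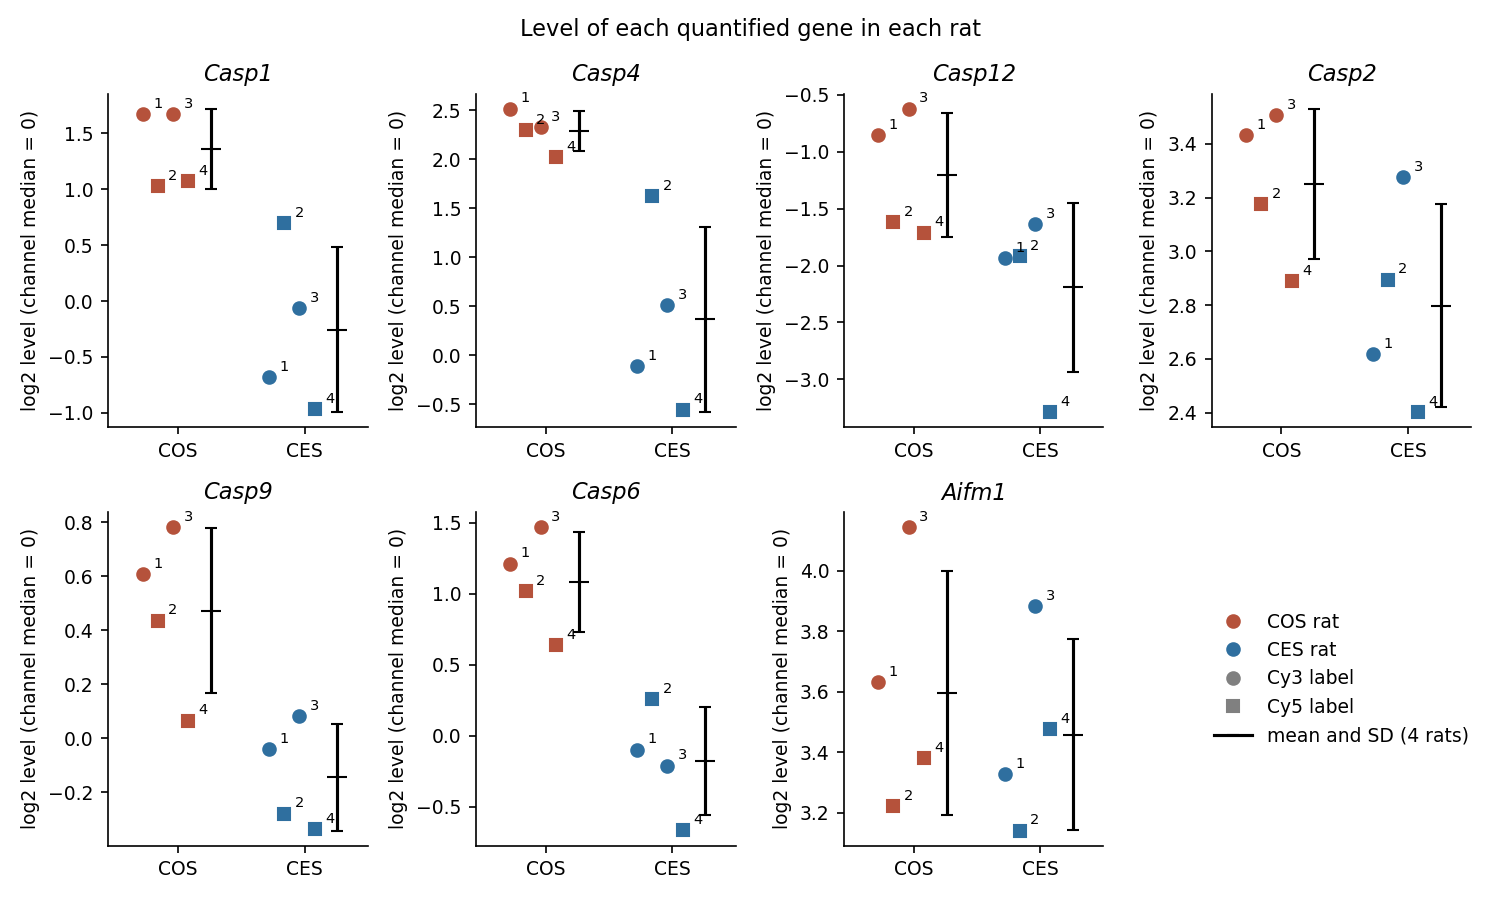
Level of each of the 7 quantified genes (vertical axis, log2 with the channel median at 0) in each COS and CES rat, numbered by replicate, with circles for Cy3, squares for Cy5, and the mean and SD of 4 rats beside them. The groups do not overlap for Casp1, Casp4 and Casp6, they overlap for the other genes, and CES replicate 2 lies nearest the COS rats for Casp1 and Casp4.

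Casp4 encodes the inflammatory caspase that senses bacterial lipopolysaccharide in the cytosol and cuts gasdermin D. Its level in COS replicates 1 to 4 was 2.52, 2.29, 2.32 and 2.02. In CES replicates 1 to 4 it was -0.11, 1.63, 0.51 and -0.55. Every CES rat lay below every COS rat, and the CES rats spread more (SD 0.95, n = 4) than the COS rats (SD 0.20, n = 4). The difference was -1.92 ± 0.40 (adjusted p = 0.0077 by limma), or 3.79-fold higher in COS, and it was -1.67 after subtraction of the all-gene median.

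Casp1 encodes the protease that matures interleukin-1β and interleukin-18 in inflammasomes. Its level was 1.67, 1.03, 1.67 and 1.07 in the COS rats. In the CES rats it was -0.68, 0.70, -0.06 and -0.97. Again no CES rat reached the lowest COS rat, and CES replicate 2 came closest. The difference was -1.62 ± 0.34 (adjusted p = 0.00821 by limma), or 3.06-fold higher in COS, and -1.36 after subtraction of the all-gene median.

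CES replicate 2 exceeded the mean of the other CES rats by 1.27 for Casp1 and by 1.68 for Casp4. Without it the differences widened to -2.03 (adjusted p = 3.73e-05 by limma) and -2.41 (adjusted p = 2.4e-05). For both genes the difference was wider among the Cy3 rats (-2.04 for Casp1, -2.22 for Casp4) than among the Cy5 rats (-1.19 and -1.62), which include that rat. The Casp1 call was lost without COS replicate 3 (adjusted p = 0.077 by limma) and just missed the threshold under the scaling over common spots (0.0601), and the Casp4 call was lost in the same settings (0.0702 and 0.0513).

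Casp12 encodes a relative of Casp1 and Casp4 that resides at the endoplasmic reticulum. Its signal was weak: the scanner software marked it as well above background in 3 COS rats and 1 CES rat, although its spot was valid in all. Its level was -0.86, -1.62, -0.62 and -1.71 in the COS rats. The CES rats had -1.93, -1.92, -1.64 and -3.29. The groups overlapped in that CES replicate 3 lay above COS replicate 4, but they did not overlap among the Cy3 rats alone or among the Cy5 rats alone. The difference was -0.99 ± 0.27 (adjusted p = 0.0198 by limma) and -0.74 after subtraction of the all-gene median. The call was lost without COS replicates 1, 3 or 4 or CES replicate 1 (adjusted p = 0.0502, 0.117, 0.0597 and 0.0873), and under the scaling over common spots (0.145). The processed signal of the scanner software gave a wider difference of -1.58 for this weak spot (adjusted p = 0.0177), or -1.29 after subtraction of the median of all genes.

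The protein-coding neighbours of this cluster in the RefSeq assembly did not all share its direction. Gria4, a glutamate receptor subunit gene next to Casp1, was higher in CES by 0.99 ± 0.20 (adjusted p = 0.00693 by limma). Kbtbd3 (0.22 ± 0.19, adjusted p = 0.413) on that side and Pdgfd (-0.45 ± 0.17, adjusted p = 0.0704) and Dync2h1 (0.29 ± 0.18, adjusted p = 0.232) on the side of Casp12 did not pass the test. Pdgfd was well above background in no COS rat and 2 CES rats and Dync2h1 in 2 rats of each group, so their values rest on weak signals. Msantd4 and Ddi1 were not quantified.

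**Figure D2:**
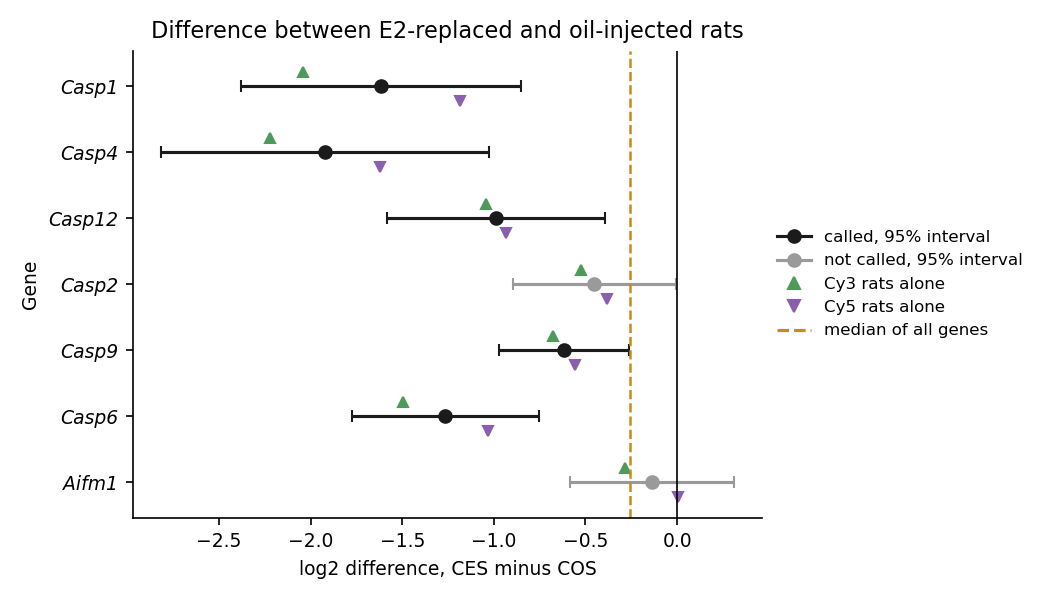
Log2 difference CES minus COS (horizontal axis) of the 7 quantified genes with its 95% interval from limma, in black where called and gray where not, with the difference among Cy3 rats alone and Cy5 rats alone as triangles and the median of all genes (-0.25) as a dashed line. The intervals of Casp1, Casp4, Casp6 and Casp12 lie below that median, that of Casp9 ends at -0.26, and those of Casp2 and Aifm1 contain it.

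Casp9 is the initiator that the Apaf1 apoptosome switches on after cytochrome c leaves mitochondria. Averaged over its 2 probes, its level was 0.61, 0.44, 0.78 and 0.06 in the COS rats. In the CES rats it was -0.04, -0.28, 0.08 and -0.34. CES replicate 3 lay just above COS replicate 4, the only overlap, and there was none among rats of the same dye. The difference was -0.62 ± 0.16 (adjusted p = 0.0164 by limma), or 1.53-fold higher in COS, and -0.36 after subtraction of the all-gene median. The Casp9 probes lie at chr5:160706695-160706754 and chr5:160719541-160719600 of rn4, plus strand. They gave differences of -0.56 ± 0.20 (adjusted p = 0.0495 over all probes by limma) for the first, which was well above background in 2 rats of each group, and -0.62 ± 0.16 (adjusted p = 0.0159) for the brighter second. The call was lost without COS replicates 1, 2 or 3 or CES replicate 1 (adjusted p = 0.0517, 0.0501, 0.0923 and 0.0667), and under the scaling over common spots (0.205).

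Casp8, the initiator that death receptors recruit through Fadd, had no level in all 8 rats because its spot fell short of the valid limit in CES replicate 1. Its probe spans chr9:57428119-57435205 of rn4, plus strand, again longer than the probe. Foreground over background in the COS rats was 5.55, 7.98, 6.07 and 6.92. The CES rats had 1.99, 3.54, 2.57 and 2.33. Every CES rat was below every COS rat on this ratio, and the spot was well above background in 3 COS rats and 1 CES rat. In the setting with no filter on valid spots, scaled signals under a log2 of -3.31 were set to that floor. The difference was then -1.98 ± 0.29 (adjusted p = 0.0111 over 35250 genes by limma), a value that rests on signals close to background in the CES rats.

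Casp2 is the initiator activated on the platform built by Pidd1. Its level was 3.43, 3.17, 3.51 and 2.89 in the COS rats. In the CES rats it was 2.62, 2.89, 3.28 and 2.40. The groups overlapped, CES replicate 3 lying among the COS rats and CES replicate 2 (2.894) just above COS replicate 4 (2.888). The difference of -0.45 ± 0.20 did not pass the test (adjusted p = 0.105 by limma), its 95% interval ran from -0.90 to -0.01, and it was -0.20 after subtraction of the all-gene median. It passed without CES replicate 2 (adjusted p = 0.0462) or CES replicate 3 (0.0312), and with no dye term (0.0498). Where the scaling changed the difference shrank toward 0, to -0.05 over common spots (adjusted p = 0.83), -0.04 in the deposited log2 table and -0.10 under both loess and quantile normalization.

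**Figure D3:**
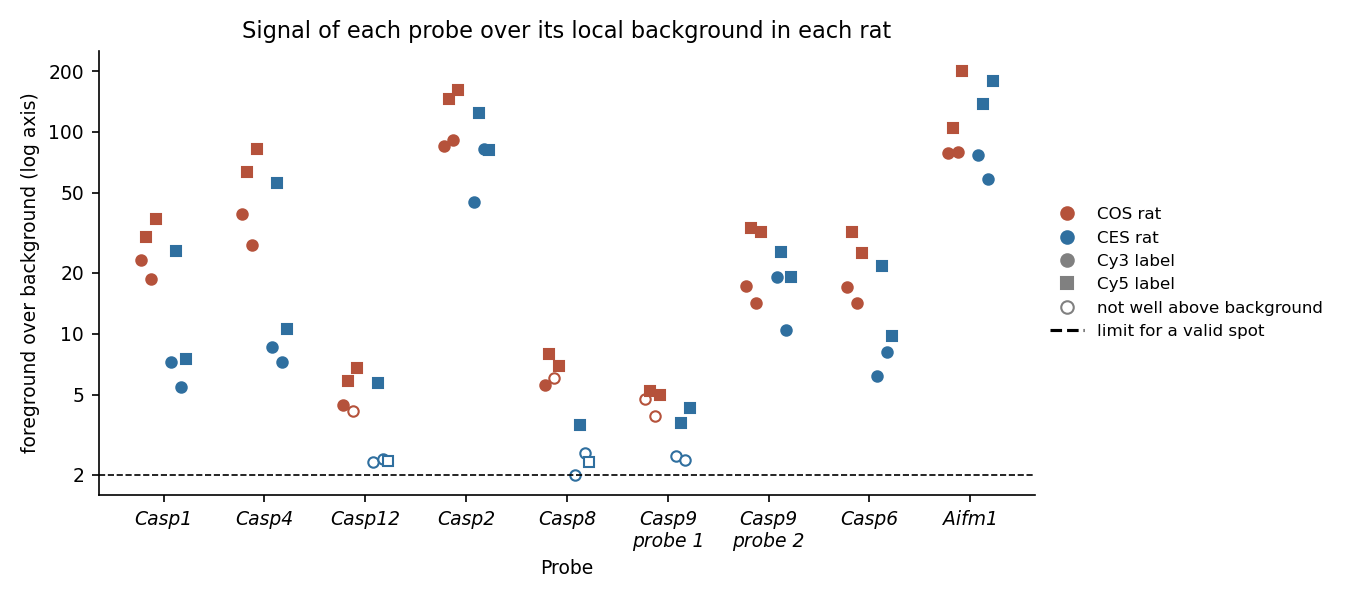
Foreground over local background (vertical axis, log scale) of each of the 9 probes in the COS and CES rats, open where the scanner software did not mark the spot as well above background, with the valid limit of 2 as a dashed line. Casp8, Casp12 and the first Casp9 probe lie near the limit in the CES rats, from 1.99 to 5.71, whereas Casp2 and Aifm1 lie at 44.7 or more in every rat.

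Casp6 is an executioner that cuts lamin A, the nuclear envelope protein. Its level was 1.21, 1.02, 1.47 and 0.64 in the COS rats. The CES rats had -0.10, 0.26, -0.21 and -0.67. No CES rat reached the lowest COS rat. The difference was -1.26 ± 0.23 (adjusted p = 0.00526 by limma), or 2.40-fold higher in COS, and -1.01 after subtraction of the all-gene median. It was -1.50 among the Cy3 rats and -1.03 among the Cy5 rats. Of the 7 genes it was called in the most settings, 21 of 24, and it missed the threshold with normexp background correction (adjusted p = 0.192 by limma), by the methods' t-test (0.0773) and without COS replicate 3 (0.0511).

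Aifm1 encodes AIF. Its level was 3.63, 3.22, 4.14 and 3.38 in the COS rats. In the CES rats it was 3.33, 3.14, 3.88 and 3.48, within a range nearly as wide. The groups overlapped throughout. The difference was -0.14 ± 0.20 (adjusted p = 0.624 by limma), with a 95% interval from -0.58 to 0.31. It was 0.12 after subtraction of the all-gene median, -0.28 among the Cy3 rats and 0.01 among the Cy5 rats, and its sign turned under the scaling over common spots (0.26, adjusted p = 0.333).

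Over the 8 rats the levels of Casp1 and Casp4 ran together most closely (Pearson r = 0.98), followed by Casp1 and Casp6 (0.95) and Casp4 and Casp6 (0.94). Aifm1 followed Casp4 least (0.11) and Casp2 most (0.60). These values describe 8 points that share group, dye and array, and they carry no test. Among 13712 other genes well above background in all rats, the nearest patterns to Casp4 were those of Kpna4 (0.999), an importin gene, and Tmbim1 (0.998). Zfp410 (0.998) and Zfp503 (0.997) were nearest to Casp6, Chtop (0.998) and Csnk1e (0.997) to Casp9, and Hyou1 (0.994), an endoplasmic reticulum chaperone, and Ublcp1 (0.990) to Aifm1. Nthl1 (0.996) and 1 transcript that the array names by its probe (0.999) were nearest to Casp1, Carnmt1 (0.990) and Hsd17b4 (0.989) to Casp2, and 2 transcripts named by accession (0.992 and 0.989) to Casp12.

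**Figure D4:**
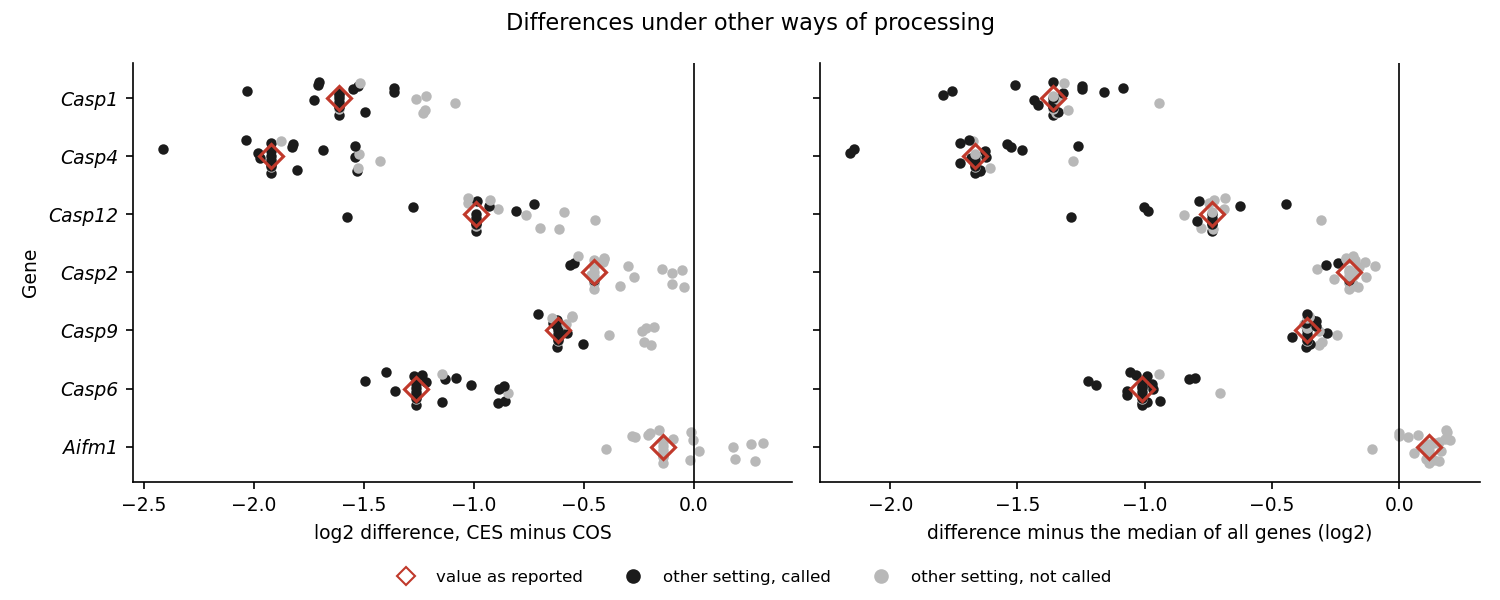
Log2 difference CES minus COS of the 7 quantified genes (left) and the same minus the median of all genes (right), as reported (red diamonds) and under up to 24 other settings (points, black where called). Casp1, Casp4, Casp6, Casp9, Casp12 and Casp2 lie below 0 in every setting shown at left, Aifm1 lies on both sides of it, and the differences of Casp1 relative to the median run from -1.79 to -0.94.

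Genes that act with these proteins were taken from lists of caspase relatives, activating platforms, inhibitors, substrates, death receptors and partners of AIF, 53 genes in all. Of the 42 that were quantified, 22 were lower in CES (52.4%, beside 28.3% of all genes) and 1 was higher, and their median difference was -0.63. Under the scaling over common spots 9 were lower and 2 higher, and the 9 were all among the 22. These were Birc2, Birc3, Fadd, Fas, Il18, Il1b, Lmna, Tnfrsf1a and Tradd, so the other lower calls given below were lost there. Without COS replicate 3 the count fell to 5 (Birc2, Birc3, Fadd, Il1b and Tradd), beside 4.36% of all genes. Without CES replicate 1 it fell to 11, beside 11.7% of all genes (2493). The signs of the 23 called genes did not turn in any of the 24 settings.

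Casp8ap2, a partner of Casp8 and the quantified gene of 2 in the caspase list, differed by -0.78 ± 0.18 (adjusted p = 0.0116 by limma), and every CES rat lay below every COS rat. The call was lost under the scaling over common spots (-0.38, adjusted p = 0.0746) and without COS replicate 3 (0.0822) or CES replicate 1 (0.0571).

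Of 9 quantified genes of the activating platforms, 5 were lower (beside 28.3% of all genes). They were the adaptors Fadd (-1.75 ± 0.30, adjusted p = 0.0046 by limma), Pycard (-1.70 ± 0.40, adjusted p = 0.0121), the inflammasome adaptor that binds Casp1, Tradd (-1.33 ± 0.22, adjusted p = 0.00427) and the kinase Ripk1 (-1.16 ± 0.34, adjusted p = 0.0259), together with Pidd1. Apaf1 (-0.22 ± 0.17) and Cycs (-0.24 ± 0.16), which form the apoptosome of Casp9, did not pass the test, nor did the inflammasome sensors Nlrp3 (-0.14 ± 0.27) and Nlrp1a (-0.05 ± 0.16). The signals of both were weak: Nlrp3 exceeded the scanner software's background mark in 5 of 8 rats and Nlrp1a in 1 of 8. Of the called genes, Fadd had that mark in 4 COS and 2 CES rats, and Ripk1 and Pidd1 in 3 and 2. With only spots so marked in all 8 rats, 2 genes of this list were called lower.

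The death receptor list had 4 quantified genes, of which 3 were lower (beside 28.3% of all genes). Ngfr differed by -2.08 ± 0.44 (adjusted p = 0.00812 by limma), Tnfrsf1a, the receptor of tumor necrosis factor, by -1.999 ± 0.36 (adjusted p = 0.00518) and Fas by -1.69 ± 0.29 (adjusted p = 0.00458). Faslg, the ligand of Fas, was at -0.93 ± 0.33 (adjusted p = 0.0548).

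Of 6 quantified caspase inhibitors, 3 were lower (beside 28.3% of all genes). Birc3 differed by -2.12 ± 0.33 (adjusted p = 0.0041 by limma) and Birc2 by -1.74 ± 0.21 (adjusted p = 0.00336), both of which encode inhibitor of apoptosis proteins. Cflar, the decoy of Casp8, differed by -0.92 ± 0.27 (adjusted p = 0.027). Xiap (-0.29 ± 0.17), the direct inhibitor of Casp9, did not pass the test, nor did Birc6 (-0.13 ± 0.16) and Birc5 (-0.69 ± 0.27). Among the mitochondrial antagonists of these inhibitors, 1 of 3 was lower (beside 28.3% of all genes), Diablo (-0.64 ± 0.16, adjusted p = 0.0159 by limma). That call was lost under the scaling over common spots (-0.24, adjusted p = 0.2) and without COS replicate 1 (0.0631), COS replicate 3 (0.092) or CES replicate 1 (0.0669).

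Of 13 quantified substrates, 7 were lower and none higher, beside 28.3% and 5.79% of all genes. Il1b (-2.16 ± 0.39, adjusted p = 0.00518 by limma) and Il18 (-1.74 ± 0.31, adjusted p = 0.00508) encode the cytokines that Casp1 matures. Lmna (-1.56 ± 0.31, adjusted p = 0.00685) encodes the lamin that Casp6 cuts, and Bid (-0.95 ± 0.26, adjusted p = 0.0206) the protein through which Casp8 reaches mitochondria. Pak2, Gsdmd and Rock1 were the others.

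Of 7 quantified genes of the AIF list, 2 were lower and 1 higher, beside 28.3% and 5.79% of all genes. The median difference was -0.21, near the -0.25 of all genes. Aifm3, a relative of Aifm1, was higher in CES by 1.45 ± 0.46 (adjusted p = 0.0341 by limma), with overlapping groups, and it passed in 11 of the 24 other settings but not in the scaling over common spots (1.85, adjusted p = 0.0571). Chchd4, the partner of AIF in protein import (-0.55 ± 0.19, adjusted p = 0.047), and Ppif (-0.54 ± 0.16, adjusted p = 0.0321) were lower. Both calls were lost under the scaling over common spots (-0.15 and -0.14, adjusted p = 0.435 and 0.409 by limma) and without COS replicate 1, 2 or 3 or CES replicate 1, and that of Chchd4 also without COS replicate 4 (0.0606).

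**Figure D5:**
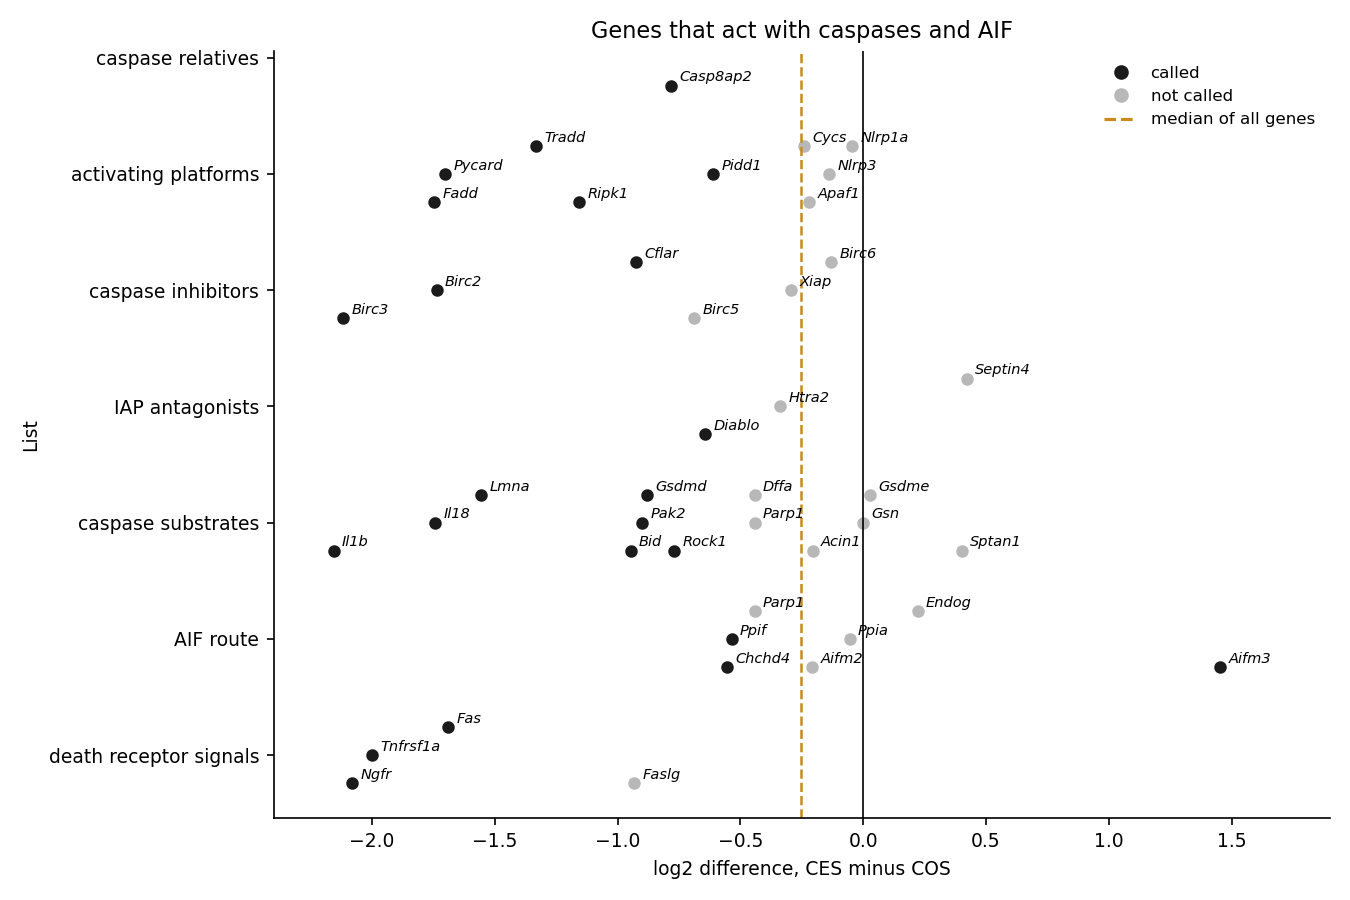
Log2 difference CES minus COS (horizontal axis) of the quantified genes of each list (rows; Parp1 stands in 2 of them), black where called and gray where not, with the median of all genes as a dashed line. The called genes lie below 0, from -2.16 for Il1b to -0.54 for Ppif, with the exception of Aifm3 at 1.45.

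Markers of several cell types were called, some lower and some higher in CES. Of the blood myeloid list 2 of 6 genes were quantified, and both were lower in CES, Cd14 by -5.05 ± 0.88 (adjusted p = 0.00482 by limma) and Lyz2 by -2.54 ± 0.35 (adjusted p = 0.00374). Their summed level, relative to the channel median, ran from 135.6 to 170.7 in COS and from 8.68 to 48.0 in CES, with CES replicate 2 the highest of the latter. The other genes of that list, S100a8, S100a9, Ccr2 and Mpo, were not quantified, so the list rests on Cd14 and Lyz2 alone. Of 8 microglial markers, Itgam and Csf1r were lower, P2ry12 was higher and 5 did not pass the test, and the summed level ran from 87.6 to 121.6 and from 72.6 to 96.8. Endothelial markers were lower in 3 of 5, with a summed level from 41.1 to 63.3 in COS and from 18.3 to 43.5 in CES. Astrocytic markers were higher in 2 of 6, and oligodendrocytic ones were called in none of 6. Of 5 neuronal markers 1 was higher and 1 lower. No choroid plexus or red blood cell marker was called, but their levels varied widely between rats of the same group. The summed level of 3 choroid plexus markers ran from 12.8 to 607.2 in COS and from 15.2 to 190.3 in CES. That of 2 red blood cell markers ran from 3.32 to 18.2 and from 4.28 to 7.12. Of all genes, 28.3% were called lower and 5.79% higher, and the share of microglial markers called lower is near the former. Marker calls are given for the reported scaling only. The part of these cells in the differences above was not tested.

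The label of the tissue was checked against markers of granule neurons. Prox1, which defines them, was not quantified. Of the 5 other markers Neurod1 was higher in CES and C1ql2, Dsp and Tdo2 were lower, beside 5.79% and 28.3% of all genes. Tdo2 was well above background in no rat. The summed level of the 5 ran from 16.3 to 29.4 in COS and from 18.8 to 25.2 in CES. The 4 markers of pyramidal neurons, cells outside the granule layer, were all higher in CES, beside 5.79% of all genes. Their summed levels ran from 15.2 to 21.0 in COS and from 33.3 to 77.7 in CES. However, Fibcd1 was well above background in no COS rat and 2 CES rats.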

How the data were processed

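RNA of 8 rats was measured on 4 Agilent 2-colour arrays of a multiple yellow layout, in which each channel is 1 rat and both rats of an array belong to the same group. Per the labels, Agilent Feature Extraction 10.7.3.1 read the scans. The deposited scanner files hold the foreground and background intensity of each spot and channel, before any normalization by the authors. The authors also deposited a log2 table, each column of which was checked to equal, up to a constant, log2 of the spot's median less the background median. It precedes the averaging and renormalization given in the methods.

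Mean intensity less background median was scaled by the channel median of valid spots (foreground at least 2 times background), averaged over the spots of a gene valid in all 8 rats and log2-transformed. No spot was saturated, and 1593 spots marked as outliers were kept. Spots were named by RefSeq accession where it matched (17512 of 41012 probes), otherwise by the file, and the genes described by the file's name. The precision is a median SE of 0.20 over 21372 genes, limited by the number of arrays.

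CES and COS were compared by limma 3.58.1 (R 4.3.3, statmod 1.5.0, data.table, version 1.17.8), two-sided, with dye as a fixed and array as a random effect (correlation -0.0065), since arrays are nested in groups. Benjamini-Hochberg adjustment covered all genes. The fit was also run on simulated data, which held a shared array effect but no dye effect and so cannot check the handling of the dye. The labels call the rats biological replicates. The rest used pandas 2.3.3, scipy 1.17.1, numpy 2.4.6 and matplotlib 3.10.9 under Python 3.11.15. Same-numbered rats of COS and CES deviated together (r = 0.32, 0.21, 0.29 and 0.34), as did rats of different number with the same dye (0.21 to 0.44), and the number carries the dye, so the fit with a replicate block is an alternative.

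All 8 genes are given with every rat. Of the lists, called genes are named, up to 4 in each direction with values, and for each quantified gene the 2 nearest patterns. List genes named without a call, and the genes around the Casp1 cluster, were chosen after their values were seen. Some genes of the lists are not reported here and do not enter their counts. The genes and lists were chosen with earlier results of these data known. Alternatives were normexp (offset 50), the processed signal, loess with Aquantile, quantile normalization, scaling over spots valid in all rats, no filter, a foreground of 3 times background, the scanner mark for spots well above background, outliers left out, no array block, no dye term, a replicate block, the brightest probe, the methods' t-test, the deposited log2 values and each rat left out. With no filter, scaled signals under a log2 of -3.31 were set to that floor. Scaling over common spots without CES replicate 2 was added after seeing the data.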

Additional observations from a re-analysis of the deposited data

How the results depend on the processing

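The calls depend on the scaling of the channels and on single rats, and the cause was not tested. Under loess with Aquantile, quantile normalization, scaling over spots valid in all rats and the deposited log2 table, 3208, 3178, 3352 and 3285 genes were called higher and 1843, 2155, 1720 and 1936 lower. Of the genes described here 1, 2, 1 and 2 were then lower, and of the pathway genes 10, 10, 9 and 11 were lower and 3, 3, 2 and 2 higher. In that order Casp1 was at -1.22, -1.26, -1.22 and -1.23, Casp9 at -0.22, -0.23, -0.22 and -0.20 and Casp12 at -0.70, -0.76, -0.59 and -0.61, none of them called, and Aifm1 turned to 0.19, 0.18, 0.26 and 0.28. Casp4 missed it under loess (-1.53) and the common scaling (-1.52). With normexp 126 genes were higher and 461 lower, 0 of those described here (3 at an unadjusted p under 0.05, beside 2185 of all genes lower and 849 higher) and 3 lower and 0 higher pathway genes. Casp1 was then at -1.09, Casp4 at -1.43, Casp6 at -0.85, Casp9 at -0.38, Casp12 at -0.45 and Aifm1 at 0.023.

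The methods' t-test after Benjamini-Hochberg adjustment called 0 genes in any direction or list, with the differences of Casp1 (-1.62), Casp4 (-1.92), Casp6 (-1.26), Casp9 (-0.62) and Casp12 (-0.99) as reported. At an unadjusted p under 0.05, without the fold cut-off per gene of the methods, it called 5342 genes lower and 772 higher, 4 of them described here. Without the filter 752 genes were higher and 0 pathway genes were. A foreground of 3 times background left 2835 genes lower, 11 pathway genes lower and 0 higher, and Casp12 without a value. With no dye term Casp2 (-0.45) was called.

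Leaving out single rats gave 262 to 1860 genes higher and 932 to 7029 lower, 0 to 6 genes described here lower, and 5 to 27 pathway genes lower and 0 to 2 higher, the lowest counts without COS replicate 3. The ranges were -2.03 to -1.36 for Casp1, -0.56 to -0.30 for Casp2, -2.41 to -1.54 for Casp4, -1.50 to -1.08 for Casp6, -0.71 to -0.55 for Casp9, -1.27 to -0.72 for Casp12 and -0.28 to 0.00 for Aifm1. With the common scaling and without CES replicate 2, 5338 genes were higher and 3080 lower, 5 pathway genes were higher, Casp9 was at -0.18 and Aifm1 at 0.31. The replicate block left 0 pathway genes higher, since Aifm3 (1.45) missed the threshold (adjusted p = 0.0656 by limma), and changed no other call among the 7 quantified genes and the 23 called pathway genes.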
